A study of Mus musculus with 6 samples.

Results

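Selected genes of the methionine cycle, among them those of methionine adenosyltransferase, and of the polyamine pathway that branches from it were followed in Neuro2a cells. These cells, a mouse neuroblastoma line, were grown with or without D-serine. The 10 genes were chosen by name, as rows of the deposited table of 24391 genes. They are Mat2a, Mat2b, Ahcy, Amd1, Odc1, Srm, Sms, Sat1, Oaz1 and Azin1. The 3 control samples received vehicle, and the 3 treated samples received 5 mM D-serine, the mirror image of L-serine. Both groups were moved from D-MEM to a medium written as D-MEM(-SG) with 10% FBS, and polyA RNA was sequenced after 18 h from libraries of a stranded kit. The change of medium is therefore shared by the controls, and a single tumour line is the only model. The labels do not say whether replicates came from separate cultures, so p-values measure the spread between these samples, which may be technical.

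Methionine adenosyltransferase joins methionine to ATP and makes S-adenosylmethionine, the methyl donor of the cell. Once the methyl group is given away, S-adenosylhomocysteine remains and is split to homocysteine, which can be methylated back to methionine with a folate-borne carbon that often comes from serine. A part of S-adenosylmethionine is decarboxylated instead and gives its aminopropyl group to putrescine and spermidine. Polyamines bind nucleic acids and spermidine is the source of hypusine in the translation factor eIF5A. Proliferating cells and neuroblastomas with high MYC or MYCN activity are known for high ornithine decarboxylase.

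The libraries held between 32518483 and 40024265 counts. D-serine replicate 1 stood apart from its fellows, with a chi-square statistic per degree of freedom of 17.7 and 13.9 against them, where all other pairs of a group had 3.88 to 6.54. Its slope of log2 expression per doubling of exonic length was -0.0717 relative to the mean of the libraries, so it read longer genes lower. D-serine replicates 2 and 3 had slopes of 0.00581 and -0.00397, and control replicates 1, 2 and 3 had 0.0356, 0.0191 and 0.0152. All controls thus lay above all D-serine libraries. A trend of the libraries and an effect of D-serine on genes by length cannot be told apart, also where the length trend was removed. Values without D-serine replicate 1 are given for each tested member. Of 10 markers of sympathoadrenal neuroblastoma, 9 had a mean of at least 1 CPM (counts scaled to library size), including Hand2 at 249 CPM. Their summed level was 1480 to 1550 CPM in control and 1580 to 1700 CPM with D-serine, and the part of this shift in the results was not tested. The summed levels of 5 fibroblast, 5 glial and 5 macrophage markers were at or under 6.9, 3.07 and 2.2 CPM in every library, with Lum and Adgre1 at 0 in all.

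No measured transcript of the 10 genes passed the test of a difference between D-serine and control. Of these members, 8 had enough counts to be tested and 0 passed an adjusted p of 0.05 in edgeR's quasi-likelihood test, in which 9.74% of all 13366 genes tested passed. DESeq2 and limma-voom also called 0 members. At an unadjusted p under 0.05 there were 2, Odc1 and Sms, where 28.2% of all genes lay. Their estimates pointed in opposite directions, up for Odc1, the entry into polyamine synthesis, and down for Sms, which makes spermine. The median log2 fold change over the 8 members was 0.027, and over all genes tested it was 0.0053. In bulk RNA, fewer cells expressing a gene and less RNA per cell cannot be told apart. The remaining members, Amd1 and Oaz1, were listed at or next to 0 in every library and could not be compared.

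Amd1 encodes S-adenosylmethionine decarboxylase, which commits S-adenosylmethionine to polyamines. Its row had 0 counts in all 6 libraries. Oaz1 encodes the antizyme that binds ornithine decarboxylase and sends it to the proteasome, and its row had 1 count in control replicate 3 and 0 in the other libraries. At this depth 3 counts correspond to 0.0745 to 0.093 CPM, but the positions of these rows bear on what a 0 means. The table names no build, and its start positions differ from RefSeq on GRCm38 in 10 of 10 members. In its coordinates, where Amd1 spans 40007264 to 40021994 on the minus strand of chromosome 10 and Oaz1 80289401 to 80292035 on the plus strand of the same chromosome, 3197 of the 3206 exonic bases of Amd1 (99.7%) also belonged to a row named Amd2, which was at 0 as well. Likewise, 962 of the 1075 exonic bases of Oaz1 (89.5%) also belonged to a row named Oaz1-ps, again at 0. Among all rows of the table that had at least 90% of their exonic bases in another row of the same strand, 527 of 555 (95%) were at 0 in all libraries. Amd1 belongs to these rows. Among the other rows, to which Oaz1 belongs with its 89.5%, 6229 of 23836 (26.1%) were. How reads falling in 2 rows were counted is not given in the sources used here, so these values say nothing about the expression of Amd1, Amd2 or Oaz1.

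The sequences show how close these pairs are, beside a pair in which both genes were counted. In GENCODE M21 on GRCm38, Amd2 and Oaz1-ps do not lie within Amd1 and Oaz1 as their rows in the table do. The coding sequence of Amd1 had 1002 bases and differed from Amd2 in 1 of them, G796C, counted from the first base of the start codon with the base of the member first. That of Oaz1 differed from Oaz1-ps in 1 of 678 bases, G125C. Ahcy, adenosylhomocysteinase, differed in 4 of 1296 bases from Gm4737, a copy on chromosome 16 that has a row of its own in the table, at C459T, G474A, C1050T and C1068T. The stretches below hold the first differing base of each pair, with differing bases in capitals. The stretches of the members are coding sequence, those of the copies are the bases aligned to it, and Oaz1-ps is a processed pseudogene. All stretches are written 5′ to 3′ from GRCm38. Those of Amd1 and Amd2 lie at chr10:40290157-40290216 and chr10:35710735-35710794, both on the minus strand. Those of Oaz1 and Oaz1-ps lie at chr10:80826846-80826905 on the plus strand and chr17:17345995-17346054 on the minus strand, and those of Ahcy and Gm4737 at chr2:155064867-155064926 and chr16:46154508-46154567, both on the minus strand.
Amd1: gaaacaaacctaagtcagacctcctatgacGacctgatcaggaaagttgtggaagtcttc
Amd2: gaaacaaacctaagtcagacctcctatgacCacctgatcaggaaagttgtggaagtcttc
Oaz1: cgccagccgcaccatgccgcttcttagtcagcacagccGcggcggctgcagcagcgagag
Oaz1-ps: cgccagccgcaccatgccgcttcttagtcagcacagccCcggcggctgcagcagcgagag
Ahcy: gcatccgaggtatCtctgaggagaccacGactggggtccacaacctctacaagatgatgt
Gm4737: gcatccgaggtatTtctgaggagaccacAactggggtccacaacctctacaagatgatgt
The Amd1 and Oaz1 windows differ from their copies in 1 base each and the Ahcy window in 2.

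Of the 8 tested members, Odc1, which encodes ornithine decarboxylase, had the highest transcript level. Amd1 and Oaz1 could not be ranked. On a scale of CPM divided by exonic length in kilobases (RPKM), the mean over the 6 libraries was 279.8 ± 13 for Odc1, higher than 98.5% of the genes tested. Mat2a followed at 154 ± 13.6 RPKM, then Srm at 139 ± 6.02, Azin1 at 127 ± 2.84, Ahcy at 66.0 ± 2.77, Sms at 32.1 ± 2.38, Sat1 at 23.7 ± 1.76 and Mat2b at 18.5 ± 1.24 (SD, n = 6). The libraries of Mat2a and Srm overlapped in RPKM, and so did those of Sat1 and Mat2b, so the order within these pairs is not resolved. Every other neighbouring pair among the 8 was separated in all 6 libraries. The level of the catalytic subunit Mat2a was thus several times that of its regulatory partner Mat2b. Near copies with at least 95% identity over at least 500 bases were found for 7 members, 6 for Odc1, 5 for Amd1, 3 for Sms, 2 for Ahcy and 1 each for Mat2a, Sat1 and Oaz1, and for those the levels are uncertain by the reads that copies could take.

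**Figure D1:**
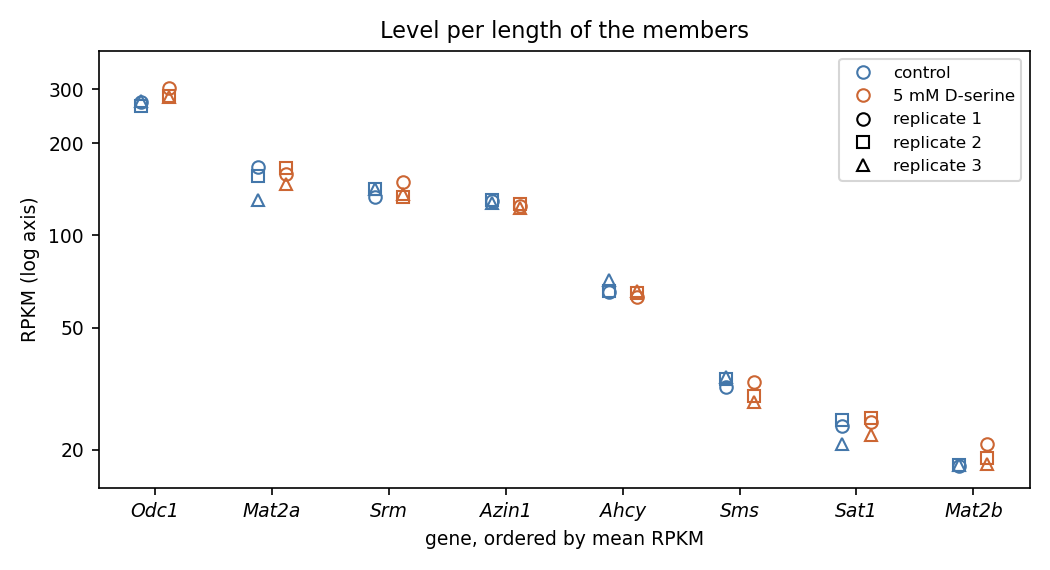
Level per length of the 8 members with counts, in RPKM on a log axis, with 1 point per library (control blue, D-serine orange) and the replicate number as the marker shape. Odc1 stands highest at a mean of 279.8 RPKM and Mat2b lowest at 18.5 RPKM, and the groups lie close together within each gene.

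The methionine cycle was compared first. Values of a group are listed in the order of replicates 1, 2 and 3. Positions are again those of the deposited table. Mat2a (chromosome 6, 72382793 to 72389552, minus strand), the catalytic subunit of the methionine adenosyltransferase found outside the liver, was at 469, 437 and 366 CPM in control and at 443, 463 and 411 CPM with D-serine. The groups overlapped, and the lowest library was a control. Its means were 424 ± 52.6 and 439 ± 26.4 CPM (SD, n = 3 each), with a log2 fold change of 0.049 (SE 0.074, edgeR adjusted p = 0.705). The 95% interval of the change ran from -7.38% to 15.6%, so a change within that range could not be resolved. Mat2a had the widest spread of the 8 tested members in control, with a coefficient of variation of 12.4%. Its exons share 213 bases (7.6%) with Particl on the opposite strand, a row with 530 counts over all libraries, and whether counting used strand is not given in the sources used here. Without D-serine replicate 1 the log2 fold change was 0.043 (adjusted p = 0.714).

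Mat2b (chromosome 11, 40492816 to 40508705, minus strand), the regulatory subunit, was at 39.9, 40.3 and 40.2 CPM in control and at 47.2, 42.4 and 40.6 CPM with D-serine. All D-serine libraries lay above all control libraries, but D-serine replicate 3 by less than 1 CPM. The log2 fold change was 0.11 (SE 0.062, edgeR adjusted p = 0.258), an estimated 8.11% with a 95% interval from -1.5% to 18.7%. Without D-serine replicate 1, the highest library, the log2 fold change was 0.048 (adjusted p = 0.643). The groups of 3 of the 8 tested members were without overlap, namely Mat2b, Odc1 and Azin1, while this held for 32.9% of all genes tested.

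Ahcy (chromosome 2, 154885048 to 154900233, minus strand), which clears S-adenosylhomocysteine, was at 166, 167 and 181 CPM in control and at 160.1, 164 and 167 CPM with D-serine. The highest library was control replicate 3, and D-serine replicate 3 lay within the control range. The log2 fold change was -0.065 (SE 0.046, edgeR adjusted p = 0.383), with a 95% interval from -10.8% to 2.44%. Its near copy Gm4737 had from 1433 to 1711 counts per library and a log2 fold change of -0.16 (SE 0.052, adjusted p = 0.0702), which did not pass either. Without D-serine replicate 1, Ahcy was at -0.049 (adjusted p = 0.477).

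Polyamine synthesis begins with Odc1 (chromosome 12, 17551679 to 17558308, plus strand), which turns ornithine into putrescine. It was at 692, 672 and 699 CPM in control and at 768, 724 and 720.1 CPM with D-serine. Every D-serine library lay above every control library, with replicate 1 the highest. The means were 688 ± 13.8 and 737 ± 26.6 CPM (SD, n = 3 each), a log2 fold change of 0.10 (SE 0.041, unadjusted p = 0.0273 and adjusted p = 0.126 in edgeR). The estimate of 7.23% had a 95% interval from 0.916% to 13.9%, so an increase above that bound lay outside it. With the trend of each library on gene length removed, Odc1 passed at an adjusted p of 0.0498, where 15.3% of all genes passed. This was the only 1 of 16 alternatives in which it passed. With the replicate number added as a block to that fit, the adjusted p was 0.0638. Without D-serine replicate 1 the adjusted p was 0.152, and 0.109 with the length trend also removed.

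Srm (chromosome 4, 147965622 to 147968728, plus strand), spermidine synthase, adds the first aminopropyl group. It was at 178, 187 and 189 CPM in control and at 198, 177 and 181 CPM with D-serine, and the means of 185 ± 6.01 and 185 ± 11.1 CPM (SD, n = 3 each) differed by less than either spread. The log2 fold change was 0.0043 (SE 0.050, edgeR adjusted p = 0.970), with a 95% interval from -6.95% to 8.1%. D-serine replicate 1 was the highest of the 6 libraries and D-serine replicate 2 the lowest. Without D-serine replicate 1 the log2 fold change was -0.046 (adjusted p = 0.471).

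Sms (chromosome X, 153881886 to 153929978, minus strand), spermine synthase, adds the second aminopropyl group. It was at 108, 115 and 117 CPM in control and at 113, 101 and 96.7 CPM with D-serine. D-serine replicates 2 and 3 lay below all controls, while D-serine replicate 1 lay within the control range. The means were 113 ± 4.45 and 103 ± 8.16 CPM (SD, n = 3 each), a log2 fold change of -0.13 (SE 0.058, unadjusted p = 0.0384 and adjusted p = 0.153 in edgeR), or -8.81% with a 95% interval from -16.4% to -0.571%. Without D-serine replicate 1 the log2 fold change was -0.20 and passed, at an adjusted p of 0.00628. In that fit 1699 of all 13553 genes tested passed, where 1302 of 13366 did with all libraries. Without D-serine replicate 2 or 3, Sms was at -0.12 and -0.087 (edgeR adjusted p = 0.266 and 0.43). The call of Sms thus depended on which library was left out.

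**Figure D2:**
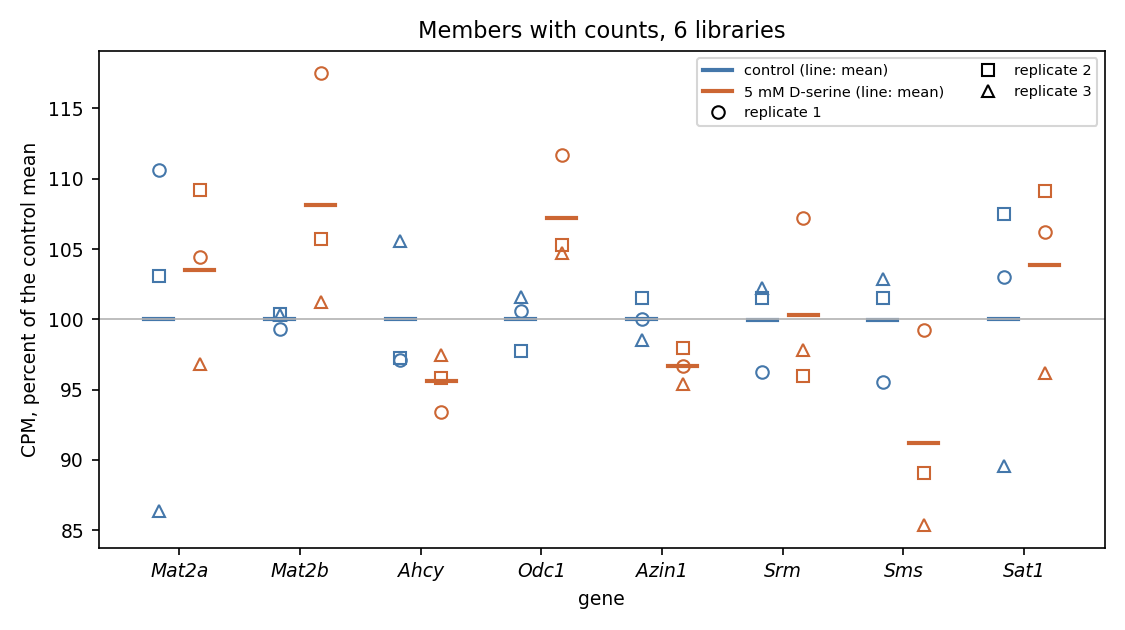
CPM of the 8 members with counts as a percent of the control mean of the gene, with 1 point per library, the replicate number as the marker shape and a line at the mean of each group (control blue, D-serine orange, n = 3 each). All points lie between 85.3% and 118%; only Mat2b, Odc1 and Azin1 have groups without overlap.

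Neither of the tested members of turnover and control passed. Sat1 (chromosome X, 151647669 to 151650992, minus strand), spermidine/spermine acetyltransferase, starts polyamine breakdown and export. It was at 30.6, 31.9 and 26.6 CPM in control and at 31.5, 32.4 and 28.5 CPM with D-serine. In both groups replicate 3 was the lowest, and the groups overlapped. The log2 fold change was 0.054 (SE 0.077, edgeR adjusted p = 0.686), with a 95% interval from -7.51% to 16.5%. It was at 0.037 without D-serine replicate 1 (adjusted p = 0.806) and at -0.017 with the length trend removed (adjusted p = 0.909).

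Azin1 (chromosome 15, 38417185 to 38449021, minus strand), the antizyme inhibitor, resembles ornithine decarboxylase but lacks its activity, and it draws antizyme away from the enzyme. It was at 668, 678 and 658 CPM in control and at 646, 654 and 637 CPM with D-serine. It had the narrowest spread of the 8 tested members with D-serine, with coefficients of variation of 1.48% in control and 1.35% with D-serine, and its groups did not overlap. The log2 fold change was -0.049 (SE 0.037, edgeR adjusted p = 0.422), with a 95% interval from -8.56% to 2.23%. With the length trend removed the log2 fold change was 0.0071 (adjusted p = 0.908), and without D-serine replicate 1 it was -0.049 (adjusted p = 0.343), so the direction was not settled.

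Ratios of 2 members within a library do not depend on how libraries are scaled. The ratio of Srm to Sms counts was 1.64, 1.63 and 1.62 in control and 1.76, 1.75 and 1.87 with D-serine. Every D-serine library had more Srm per Sms than every control library, with a mean difference of 0.138 on the log2 scale. Such ratios still depend on gene length where libraries differ in their length trend, and Srm has 1328 exonic bases against 3377 for Sms. With that trend removed, the log2 fold changes were -0.065 for Srm and -0.13 for Sms, closer together than the 0.0043 and -0.13 given above. The exact two-sided permutation p was 0.1, the smallest that 3 against 3 allows, or 0.3 adjusted over 3 ratios. The ratio of Mat2a to Mat2b was 10.6 ± 1.36 in control and 10.1 ± 0.769 with D-serine (SD, n = 3 each, exact permutation p = 0.8), and that of Sat1 to Odc1 was 0.0432 ± 0.00478 and 0.0418 ± 0.00261 (exact permutation p = 0.8). Both overlapped between the groups. Ratios with Oaz1 or Amd1 could not be formed. Chosen after those zeros were seen, the ratio of Odc1 to Azin1 was 1.03 ± 0.0355 in control and 1.14 ± 0.0428 with D-serine, and that of Odc1 to Oaz2, another antizyme, was 4.94 ± 0.0406 and 5.59 ± 0.037 (SD, n = 3 each, not tested). Since Odc1 was higher and Azin1 lower in every D-serine library, the separation of their ratio was fixed by the single genes. With the length trend removed, their log2 fold changes were 0.089 and 0.0071.

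Other genes of the pathway held several that passed. A list of 52 genes, written by role from general knowledge but with earlier results of these data known, held 38 with enough counts. Of the 38, 8 passed the threshold (21.1%, where 9.74% of all genes tested did). Since the list was not blind to the data, these shares are no test of the pathway. Of the 8, 6 fell (4.9% of all genes tested did) and 2 rose (4.84% did). Under upper quartile scaling and under library totals, 3 fell and 3 rose, so the split depends on the scaling. The median log2 fold change over the 38 was -0.041. Each of the 8 lost its call without control replicate 1 and also without control replicate 2, where 125 and 68 genes passed in all. The median exonic length of the genes tested was 2834.5 bases, and that of the 6 that fell ran from 1829 in Enoph1 to 7309 in Atp13a3. Aldh18a1 (3527), Atp13a2 (4327) and Ahcyl2 (5385), which also fell, were above the median. Both genes that rose, Paox (1737) and Azin2 (2802), were below it, Azin2 only narrowly. With the length trend removed, all 8 kept their calls, where 15.3% of all genes tested passed.

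In the methionine cycle and transsulfuration, 2 of 11 tested genes fell and 0 rose, where 4.9% of all genes tested fell and 4.84% rose. Ahcyl2 encodes an adenosylhomocysteinase-like protein, and whether it acts in the cycle was not examined here. It was at 132, 125 and 122 CPM in control and at 97.8, 109 and 107 CPM with D-serine (log2 fold change -0.27, SE 0.052, edgeR adjusted p = 0.0115). All D-serine libraries of Ahcyl2 were below the controls. It is long, with 5385 exonic bases, and was at -0.21 with the length trend removed (adjusted p = 0.00133), still past the threshold. Ahcyl1 (-0.045, adjusted p = 0.519) and Cth, which makes cysteine from cystathionine (-0.086, adjusted p = 0.219), were not past it, but with the length trend removed Cth passed at -0.13 (adjusted p = 0.0223). Mat1a, Bhmt and Bhmt2, which are typical of liver, had 0 counts.

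In the salvage of methionine from the methylthioadenosine that polyamine synthesis leaves behind, 1 of 7 tested genes fell (4.9% of all genes tested did). Enoph1, an enzyme of that salvage route, was at 78.0, 81.0 and 77.9 CPM in control and at 71.2, 68.9 and 70.4 CPM with D-serine, with no overlap (log2 fold change -0.17, SE 0.047, edgeR adjusted p = 0.0370). Leaving out any 1 library other than D-serine replicate 1 ended the call of Enoph1, with a highest adjusted p of 0.161. Got1, an aspartate aminotransferase that can close the route, had a log2 fold change of -0.063 (adjusted p = 0.323).

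Of the 2 tested genes of polyamine interconversion and breakdown 1 rose, and of the 4 of antizyme control 1 rose. Among all genes tested, 4.84% rose. Paox, a polyamine oxidase of the peroxisome that acts on acetylated polyamines, was at 11.1, 10.9 and 11.0 CPM in control and at 14.1, 13.7 and 13.5 CPM with D-serine (log2 fold change 0.32, SE 0.080, edgeR adjusted p = 0.0263). Azin2, a second antizyme inhibitor, was at 6.23, 6.93 and 6.26 CPM in control and at 9.38, 8.76 and 10.3 CPM with D-serine (log2 fold change 0.55, SE 0.11, edgeR adjusted p = 0.0125). Azin2 had the largest change of the listed genes that passed, at 46.6% with a 95% interval from 24.9% to 72.0%, and a level of only 2.85 RPKM, far under the 127 RPKM of Azin1. The antizymes Oaz2 (-0.078, adjusted p = 0.283) and Oaz3 (-0.069, adjusted p = 0.807) and the acetyltransferase relative Sat2 (0.21, SE 0.38, adjusted p = 0.758) were not past the threshold. With the length trend removed, Oaz2 passed at -0.12 (adjusted p = 0.0294), and without D-serine replicate 1 Sat2 was at 0.057 (adjusted p = 0.953). Of 16 alternatives, Paox was not past the threshold in 5 and Azin2 in 3, with highest adjusted p of 0.103 and 0.0582.

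In the supply of ornithine and arginine, 1 of 6 tested genes fell (4.9% of all genes tested did). Aldh18a1, which makes the precursor of proline and ornithine from glutamate, was at 448, 454 and 473 CPM in control and at 410.4, 417 and 415 CPM with D-serine (log2 fold change -0.15, SE 0.040, edgeR adjusted p = 0.0365). It was not past the threshold in 7 of 16 alternatives, with a highest adjusted p of 0.131. Oat, ornithine aminotransferase, had a log2 fold change of -0.077 (adjusted p = 0.295).

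Of the 4 tested genes of polyamine transport, 2 fell (4.9% of all genes tested did). These 2 encode ATPases of the lysosomal and endosomal membranes that carry polyamines to the cytosol. Atp13a3 was at 558, 555 and 537 CPM in control and at 439, 498 and 497 CPM with D-serine (log2 fold change -0.20, SE 0.050, edgeR adjusted p = 0.0271). Atp13a2 was at 64.1, 57.9 and 62.3 CPM in control and at 49.996, 54.1 and 54.7 CPM with D-serine (log2 fold change -0.21, SE 0.057, edgeR adjusted p = 0.0351). The groups did not overlap for either gene. Atp13a3 has 7309 exonic bases, and its log2 fold change was -0.10 with the length trend removed (adjusted p = 0.0198) and -0.14 without D-serine replicate 1 (adjusted p = 0.00629). Of 16 alternatives, Atp13a3 was not past the threshold in 5 and Atp13a2 in 7, with highest adjusted p of 0.113 and 0.141. Gpc1, a heparan sulfate proteoglycan tied to polyamine uptake, had a log2 fold change of -0.073 (adjusted p = 0.352).

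Hypusination, which joins spermidine to eIF5A, had 4 tested genes and 0 past the threshold in edgeR. In edgeR 2 had an unadjusted p under 0.05, Dohh and Dhps, where 28.2% of all genes tested did. DESeq2 called 1, Dohh, and it called 1632 of all 13366 genes tested. Eif5a had the highest RPKM of the tested genes of the whole list, at 393, and a log2 fold change of -0.031 (SE 0.051, adjusted p = 0.735). Dohh, the hydroxylase of the last step, was at 85.3, 85.6 and 95.8 CPM in control and at 103, 101 and 97.7 CPM with D-serine (log2 fold change 0.17, SE 0.054, adjusted p = 0.0575). Its groups did not overlap, and it passed in 6 of 16 alternatives, among them DESeq2 and the fit without D-serine replicate 1 (adjusted p = 0.0465).

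**Figure D3:**
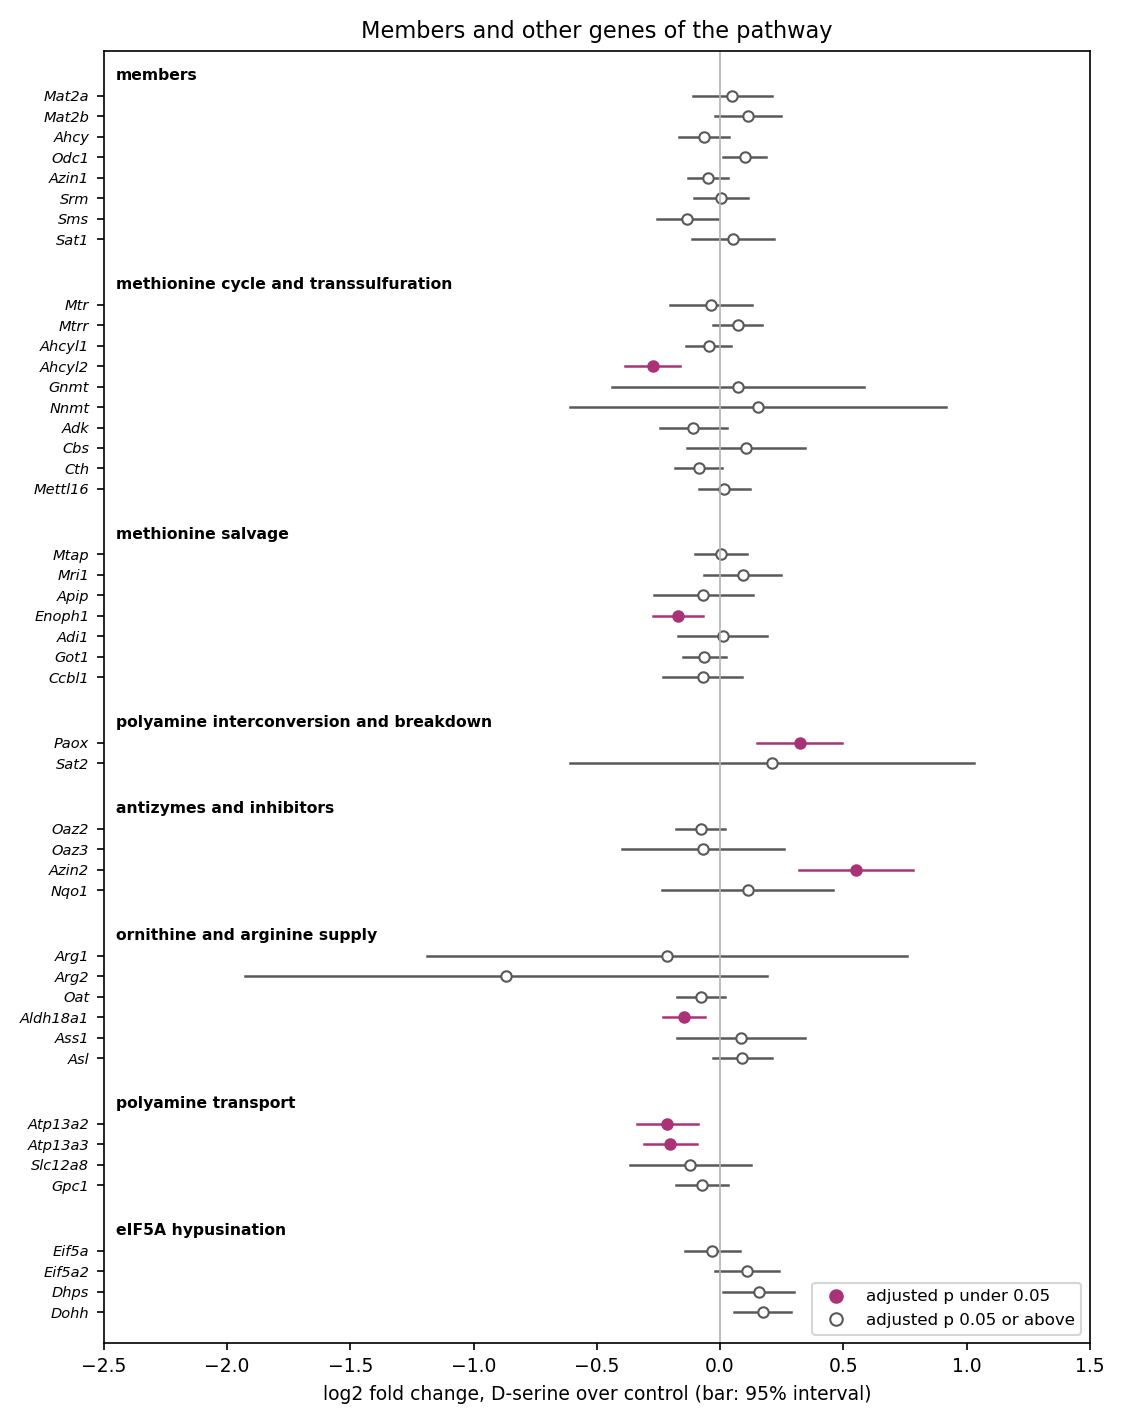
Log2 fold change of D-serine over control with its 95% interval for the 8 tested members and tested genes of the list that are reported here, grouped by role, with filled points at an adjusted p under 0.05 in edgeR. The members lie between -0.13 and 0.11 with open points, while 5 filled points lie below 0 and 2 above.

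**Figure D4:**
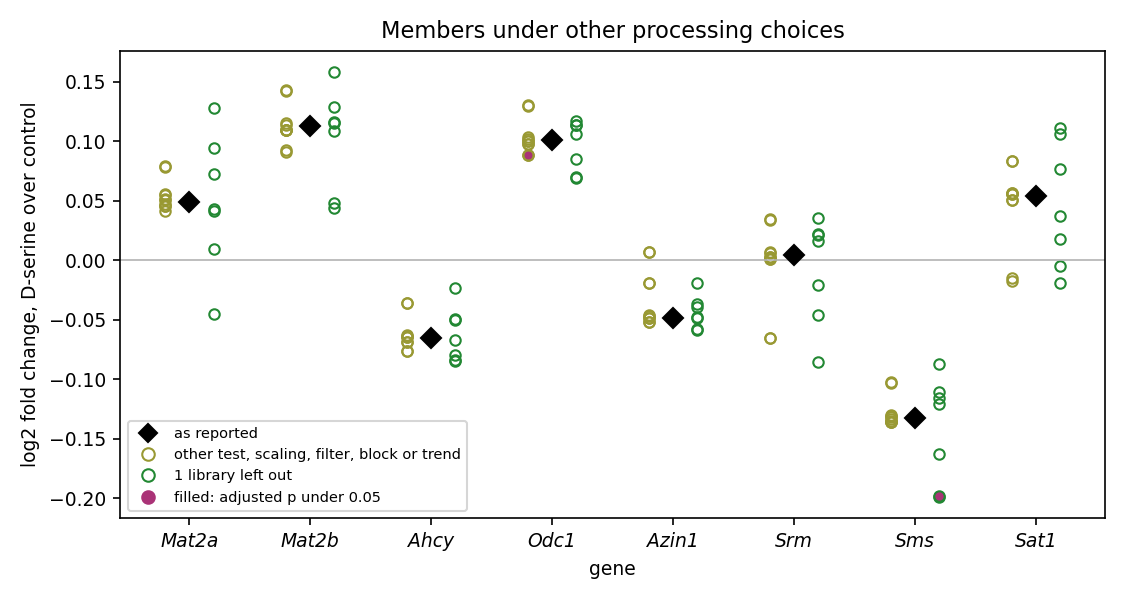
Log2 fold change of each tested member as reported (black diamonds), under another test, scaling, filter, replicate block or length correction (olive circles) and with a library left out (green circles), with purple filling at an adjusted p under 0.05. Odc1 with the length trend removed and Sms without D-serine replicate 1 carry the filling, and Mat2a, Srm, Sat1 and Azin1 cross 0.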

How the data were processed

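A single table with the layout of featureCounts, per the file headers, gives for every gene its raw count in each library, as the authors deposited it, and its summed exonic length. HISAT2, featureCounts and DESeq2 are named without versions in the submitters' processing notes, along with GRCm38 and mm10. The starts of all 10 members in the table differ from RefSeq on GRCm38, so its build is unknown; sequences were read from GRCm38 with GENCODE M21 transcripts, and copies were found with blastn. Strand and overlap settings are not given in the sources used here. Columns called vehicle were taken as the controls of the same number.

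Counts were tested in R 4.3.3 with edgeR 4.0.16 (filterByExpr, TMM, quasi-likelihood F test, no covariate), with Benjamini-Hochberg adjustment over 13366 genes, two-sided, at 0.05. The SE is the log2 fold change over the square root of F, and the 95% interval uses its t quantile. CPM is the count scaled by the TMM-adjusted library total, and RPKM divides it by length. Alternatives were DESeq2 1.42.0, limma-voom (limma 3.58.1), 3 scalings, 2 filters, a replicate block, a length trend (spline with 5 degrees of freedom) and leaving out each library. On simulated data of 13252 genes, 77 of 100 changes of 1.5-fold and 52 of 100 of 1.25-fold were recovered, with 9 false calls. The simulation held no length trend and no outlying library, unlike these data, so its counts cannot be carried over to them. Members and lists were chosen with earlier results of these data known. Named were all members, the listed genes past the threshold, the 2 most abundant of each role and Amd2. Ccbl1 and Ccbl2 stand for Kyat1 and Kyat3. Values of some listed genes and markers are not reported here.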

Additional observations from a re-analysis of the deposited data

How the results depend on the processing

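The count of members past the threshold was 0 in all settings run except 3, each with 1 member: Odc1 with the length trend removed, and Sms without D-serine replicate 1 and, in a setting added after seeing the data, without it and with the length trend removed (adjusted p = 0.00245). Leaving out 1 library gave 0 to 1 members, 0 to 9 genes of the pathway list (2 without D-serine replicate 3, 4 without control replicate 3) and 68 to 1699 genes in all. With the length trend removed, 2043 genes passed. Upper quartile scaling and library totals gave 914 higher against 412 lower and 944 against 412, where the reported split was 647 to 655.

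With the replicate number as a block, 298 genes passed, 3 of the pathway list, Ahcyl2 and Azin2 among them, and 0 members; pairing cannot alter the mean log2 ratios (0.138 for Srm to Sms, -0.0546 for Mat2a to Mat2b and -0.0439 for Sat1 to Odc1), and the exact sign-flip permutation p of the first was 0.25, the smallest possible. Deviations of same-numbered samples from their group means correlated at -0.0687, 0.0197 and -0.0187, and those of differently numbered samples between -0.0761 and 0.0877. The labels state no pairing, and such correlations cannot decide whether same-numbered samples were handled together.

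Log2 fold changes near 0 changed sign. With the length trend removed, and with the block added, Srm was at -0.065 in both, Sat1 at -0.017 and -0.015 and Azin1 at 0.0071 and 0.0067. With that trend removed and D-serine replicate 1 left out, Srm was at -0.086 and Sat1 at -0.0047. Over the fits without 1 library, values ran from -0.045 to 0.13 for Mat2a, -0.046 to 0.036 for Srm, -0.019 to 0.11 for Sat1, -0.012 to 0.46 for Sat2, -0.16 to 0.055 for Oaz3 and -0.081 to 0.014 for Eif5a. The log2 ratios ran from -0.159 to 0.0267 for Mat2a to Mat2b, from 0.109 to 0.153 for Srm to Sms and from -0.133 to 0.0265 for Sat1 to Odc1. The cause was not tested. With this depth and 3 replicates, a change of 10% in at least 1 direction lay within the 95% interval of 6 of the 8 members tested.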
